A study of Mus musculus with 4 samples.

Results

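MicroRNA genes whose symbols carry a number of 1000 or above were examined in RNA precipitated with SAFB, a nuclear matrix protein that binds DNA and RNA. The deposited expression values included 659 symbols with such a number, leaving out host-gene symbols that end in hg. Of these, 269 were kept because 2 or more of the 4 libraries listed them at 1 TPM or above, and they are called members here. TPM is a share of a library's transcripts, corrected for gene length. The members were therefore chosen by their TPM values, which are also the values compared between the groups. The other 390 symbols did not enter, 251 of them listed at 0 in every library and 139 above 0 somewhere. By the second-highest library, Mir1231 lay just inside at 1.005 TPM, and Mir1902, within an exon of Hipk3, lay just outside at 0.9996 TPM.

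The study used AML12, a non-tumour mouse hepatocyte line made from a mouse carrying a transgene for human TGF-alpha. All cells were grown with 10% serum, an insulin, transferrin and selenium supplement and 0.1 µM dexamethasone, with no other treatment. Cells were crosslinked with ultraviolet light, and sonicated nuclear lysate was shared between an antibody against SAFB (SAFB RIP, 2 libraries) and control IgG (IgG RIP, 2 libraries). The input was not analysed here. The comparison asks which RNAs were richer or poorer in SAFB RIP than in IgG RIP. The labels do not say whether the replicates were separate cultures, so p-values are not known to measure a spread between cultures. They rest on the spread between these libraries, which for each gene was drawn in part from the other genes tested.

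A microRNA starts as a hairpin inside a longer primary transcript, which is often the intron of a protein-coding gene. The Microprocessor, made of Drosha and Dgcr8, cuts the hairpin out in the nucleus, exportin 5 carries it to the cytoplasm, and Dicer trims it to the mature strand that guides an Argonaute protein. Mirtrons bypass the Microprocessor because splicing itself frees one or both hairpin ends, so they begin or end at a splice site. Bases 2 to 8 of the mature strand, the seed, pair with target messages. The libraries were made from rRNA-depleted nuclear RNA without selection of small RNA. A value here counts reads over a short annotated gene model, and a mature strand, a hairpin, a primary transcript and an unspliced host intron cannot be told apart.

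The mature strands of 16 members with large differences between the groups are given first, because they show what the symbols stand for. Sequences are from RefSeq for GRCm38.p6, written 5′ to 3′ with the seed in capitals. RefSeq tables matched 248 of the 269 members, 244 of them with a mature strand. The first 8 members below were higher in SAFB RIP.
miR-5119: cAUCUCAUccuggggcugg
miR-6985-3p: cUCACAGCcaccuccucacag
miR-6918-3p: uGAGCCUGugcccuucucacag
miR-7663-5p: gCUGCUUGgugaucauccacugu
miR-7087-3p: uGCUGGCUcucuccccugccag
miR-3089-3p: aGCAUCUGcugauccugagcugu
miR-7013-3p: cCACACUUacuguugccucuuccu
miR-7051-3p: uGAGCCACugauuccugugugc
The next 8 were lower in SAFB RIP.
miR-5100: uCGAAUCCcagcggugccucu
miR-7048-3p: uCUUCCAUucucuuuccccag
miR-7669-5p: aGUACCACcauacacagcuuuug
miR-7034-5p: uCCGGGAGggauggaugugcu
miR-7226-3p: uGACACAGccauucucugagcag
miR-6405: gUGGGAAGcagugggaagcagug
miR-5616-3p: aACUUGUGaugaggugagacag
miR-5136: aUAUGCGAgggaacuacugg
The 16 seeds differed from one another.

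Many members were hairpins at the 3′ end of an intron. The RefSeq hairpins of 4 such members show the acceptor end, with the final AG of the intron in capitals.
Mir6985: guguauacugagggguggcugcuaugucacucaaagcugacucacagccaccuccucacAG
Mir7087: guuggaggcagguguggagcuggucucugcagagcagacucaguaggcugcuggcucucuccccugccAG
Mir7048: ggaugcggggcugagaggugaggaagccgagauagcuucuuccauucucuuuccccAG
Mir6991: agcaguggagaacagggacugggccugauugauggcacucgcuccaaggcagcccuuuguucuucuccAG
Each spans the same bases as its gene model in GENCODE M21, the annotation used here for position. Mir6985 lies at chr19:4263818-4263878 on the minus strand, Mir7087 at chr9:45939521-45939590 on the minus strand, Mir7048 at chr7:25217668-25217725 on the minus strand and Mir6991 at chr19:7422573-7422642 on the plus strand (GRCm38).

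Position was read from the annotation for all 269 members. In 126 of them the 3′ end of the model lay within 2 bases of the acceptor splice site of a host intron, and 120 of these models end in AG. In 3 the 5′ end lay at the donor site and in 7 both ends lay at splice sites, as in a complete mirtron. Another 85 lay inside an intron away from its ends, 16 crossed an exon edge, 13 lay within an exon, 17 had no host gene on their strand and 2 only partly overlapped a gene. The host introns differed in size, with a median of 572 bases at acceptor-end members, 85 bases at the 7 with both ends at splice sites and 11065 bases at interior members. In all, 250 members had a host, 244 of the hosts were distinct, and for 244 members the host was protein-coding. The models were 51 to 147 bases long with a median of 69.

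Place also went with which symbols reached the filter. Of 203 symbols with 1 end at a splice site, 129 became members (63.5%), against 85 of 169 interior symbols (50.3%). Of 157 symbols with no host only 17 did (10.8%), and of 80 within an exon only 13 did (16.2%). These shares describe the listing in 4 libraries and were not tested. Members antisense to another gene numbered 32, and because the use of strand in counting is not given in the sources used here, their values are uncertain. In GENCODE 3 members (Mir3068, Mir3096 and Mir5117, named for their annotation) have the biotype snoRNA, and Mir5117 lies in an exon of Gas5, a host of snoRNAs.

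The members were low and variable. Their median was 3.63 TPM in IgG RIP replicate 1, 5.55 in IgG RIP replicate 2, 6.08 in SAFB RIP replicate 1 and 6.22 in SAFB RIP replicate 2, and together they held 0.266%, 0.295%, 0.305% and 0.296% of all TPM in that order. Listed at 0 were 82 members in IgG RIP replicate 1, 46 in IgG RIP replicate 2, 3 in SAFB RIP replicate 1 and 13 in SAFB RIP replicate 2. The IgG libraries thus had more zeros, and 158 members were above 0 in all 4 libraries. Over all genes too, more entries were above 0 in SAFB RIP (21006 and 22389) than in IgG RIP (16031 and 17278).

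The replicates of a group differed more for members than over all genes. The median absolute log2 difference between libraries was 1.45 for members in IgG RIP and 0.485 in SAFB RIP, against 0.37 and 0.166 over all 16647 genes tested. Across the 269 members, the correlation of log2(TPM + 1) was 0.386 between the IgG libraries and 0.779 between the SAFB libraries. Between an IgG and an SAFB library it was 0.332 to 0.446. Over all tested genes the 2 within-group values were 0.923 and 0.978. These are correlations across genes, which are not independent replicates.

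**Figure D1:**
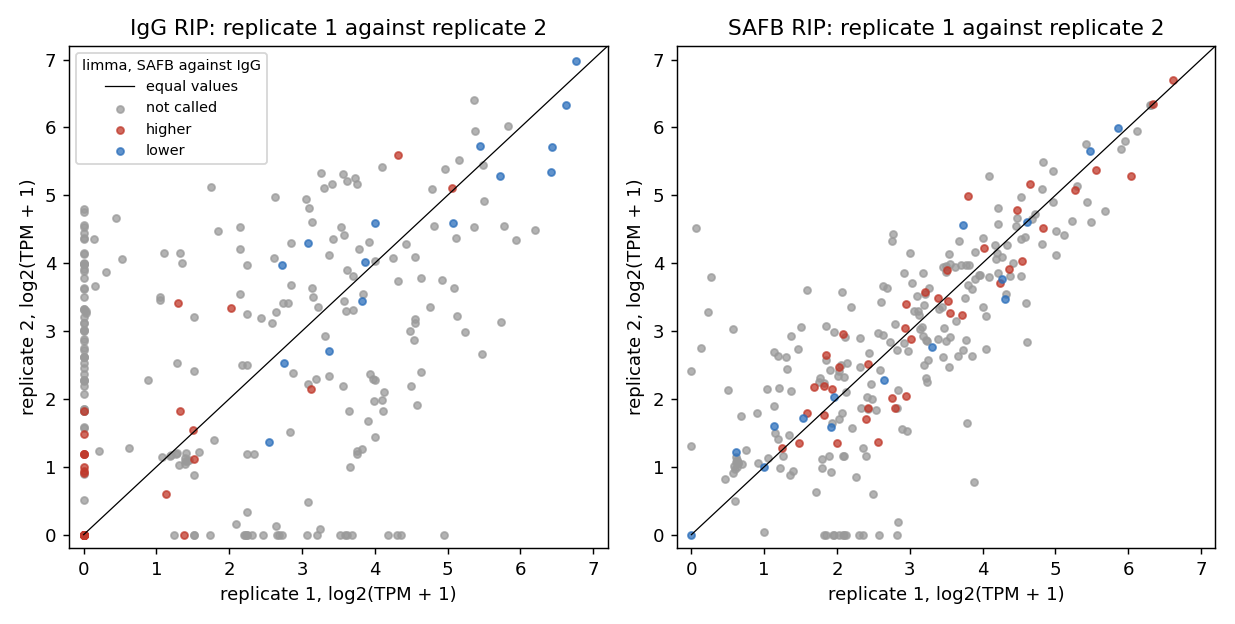
Each point is 1 of the 269 members, at its log2(TPM + 1) in replicate 1 (x axis) and replicate 2 (y axis), for IgG RIP on the left and SAFB RIP on the right; the line marks equal values and colours give the limma call. The IgG points scatter widely, with 82 members at 0 in replicate 1 and 46 at 0 in replicate 2, while the SAFB points lie closer to the line.

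Some values recurred. In IgG RIP replicate 1 exactly 3.746 TPM stood for 7 members, 1.873 for 5, 7.492 for 3 and 14.98 for 4, at a relative tolerance of 0.0001. Each of these is the first value divided or multiplied by a power of 2. In IgG RIP replicate 2 the commonest value was 2.554 TPM (7 members), with 1.277 in 5 members and 5.107 in 3. In SAFB RIP replicate 1 the value 2.543 TPM stood for 3 members and 1.272 for 2, and in SAFB RIP replicate 2 1.238 TPM stood for 5, 2.475 for 2 and 4.95 for 2. Some members thus took a few stepped values. Depth cannot be read from TPM, so no counting interval is given, and a 0 in the values is reported as listed, not as absence of the RNA.

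Differences between SAFB RIP and IgG RIP were tested with limma on log2(TPM + 1) over all 16647 genes that passed the same filter, with Benjamini-Hochberg adjustment and a threshold of 0.05. A gene is called higher or lower when it passed. Of all tested genes 38.1% were called, 29.8% higher and 8.30% lower. Of the 269 members 40 were called higher (14.9%) and 15 lower (5.58%), and 214 were not called. The median log2 fold change was 0.307 over members and 0.457 over all tested genes. Because the members entered through the same values, these counts are a description and support nothing. The 114 microRNA genes numbered below 1000 that passed the filter had a median of 0.571, with 24 higher and 6 lower, and the 663 other models under 200 bases had a median of 0.433, with 152 higher and 38 lower.

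The way in which a member entered bore on these counts. Through the SAFB libraries alone 27 members entered, of which 25 were called higher, and through the IgG libraries alone 6 entered, of which 1 was called lower; such members had to differ. The other 236 reached 1 TPM in at least 1 library of each group, and 15 of them were called higher and 14 lower (12.3% called, against 34.2% of the 15256 tested genes that entered likewise). In 22 members both IgG libraries were listed at 0, and all 22 were called higher. Without them and Mir7034, which was listed at 0 in both SAFB libraries, the median was 0.123 over 246 members, against 0.403 over the tested genes above 0 in both groups.

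The scaling and single libraries also bore on them. Values of all genes ran higher in SAFB RIP, with a median log2 fold change of 0.457. After each library was centred on its median, 34 members were called higher and 31 lower (16.4% and 17.6% of all tested genes), the members' median was -0.15, 34 of the 40 remained higher and 15 of the 15 remained lower. Without SAFB RIP replicate 1, and likewise without SAFB RIP replicate 2, 22 members were called higher and 0 lower (4.61% and 0.0420% of all tested genes without replicate 1, 4.70% and 0.0420% without replicate 2). Those 22 were the ones listed at 0 in both IgG libraries; the spread left in such a fit is that of 2 zeros, so their calls there test nothing. At an unadjusted p under 0.05, 8 and 14 members were lower in these fits. Without IgG RIP replicate 1, 87 were called higher and 63 lower (41.2% and 13.6% of all tested genes), and without IgG RIP replicate 2, 111 and 50 (45.8% and 15.4%). With 1 IgG library left out, the only spread within a group is that of the SAFB pair. That pair was the closer for members, at a median absolute log2 difference of 0.485 against 1.45 between the IgG libraries. The larger counts there are therefore not further differences found, and do not show that calls hold without an IgG library. With 1 SAFB library left out the only spread is that of the IgG pair. Calls lost there therefore do not show how far they rest on both SAFB libraries. The groups did not overlap in 136 members, with SAFB RIP above in 81 and below in 55, against 52.3% and 21.4% of all tested genes.

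The 12 members with the highest mean TPM ranged from Mir6991 down to Mir3082, and all but Mir8114 lay in introns. Mir6991, in an intron of 180 bases of 2700081O15Rik, was at 107 and 125 TPM in IgG RIP and at 57.2 and 62.7 TPM in SAFB RIP. Neither SAFB library reached the lower IgG library (log2 fold change -0.94 ± 0.13 SE, limma adjusted p = 0.0115). Its host was at 106 and 108 TPM in IgG RIP and at 83.4 and 149 TPM in SAFB RIP and was not called. Here member and host stood at like levels per length, whereas the median ratio of a member to its host was 0.112.

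Mir3109 and Mir3105 were the abundant members called higher. Mir3109 lies in an intron of 10249 bases of Anxa2, which encodes annexin A2, a calcium-dependent membrane-binding protein. Mir3109 was at 32.5 and 33.4 TPM in IgG RIP and at 80.1 and 80.3 TPM in SAFB RIP, so the libraries of each group nearly coincided (log2 fold change 1.26 ± 0.12 SE, limma adjusted p = 0.00619). Anxa2 itself was at 1224 and 1077 TPM in IgG RIP and 1369 and 1229 TPM in SAFB RIP and was not called. Mir3105, in a 29233-base intron of Shank2, a scaffold protein gene, was at 18.9 and 47.0 TPM in IgG RIP and at 97.1 and 103 TPM in SAFB RIP. Both SAFB libraries were above both IgG libraries, which differed from each other (1.71 ± 0.44 SE, limma adjusted p = 0.041). After median centring Mir3105 was no longer called.

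Mir5125, Mir8114 and Mir6996 were the other abundant members called, all lower. Mir5125 lies in an intron of Srrm2, which encodes a large nuclear speckle protein of the spliceosome. It was at 85.4 and 51.4 TPM in IgG RIP and at 23.3 and 23.4 TPM in SAFB RIP (log2 fold change -1.47 ± 0.28 SE, limma adjusted p = 0.02). Srrm2 was not called (0.14 ± 0.16 SE). Mir8114, which only partly overlaps a gene on its strand and lies antisense to Teddm2, was at 97.6 and 79.8 TPM in IgG RIP and at 43.6 and 49.1 TPM in SAFB RIP (-0.92 ± 0.16 SE, limma adjusted p = 0.0166). In both, the groups did not overlap.

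The remaining abundant members did not pass. Mir5623, in an intron of Atrnl1, was listed at 0 in IgG RIP replicate 1 and at 20.8 TPM in replicate 2, and at 78.6 and 79.2 TPM in SAFB RIP; with the IgG libraries so far apart the adjusted p was 0.0941 (limma). Mir1192, in an intron of Klf9, a glucocorticoid-responsive transcription factor gene, was at 72.6 and 21.5 TPM in IgG RIP and at 78.2 and 79.1 TPM in SAFB RIP. Mir7052, at an acceptor end in Josd2, was at 55.8 and 63.6 TPM in IgG RIP and at 68.9 and 60.6 TPM in SAFB RIP, so its groups overlapped. Mir6972, Mir6374 and Mir3082 were also not called, with log2 fold changes of -0.09 ± 0.37, -0.43 ± 0.38 and -0.30 ± 0.19 SE.

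The 10 largest rises among called members comprised 4 at an intron's acceptor end (Mir6985, Mir6918, Mir7087 and Mir7013), 3 in intron interiors (Mir5119, Mir7663 and Mir7051) and 3 with no host (Mir6417, Mir3079 and Mir3089). Mir5119 lies at chr11:98262606-98262662 (plus strand, GRCm38) in a 13369-base intron of Cdk12, the kinase gene for transcription elongation. It was listed at 0 in IgG RIP replicate 1 and at 1.79 TPM in replicate 2, and stood at 64.6 and 37.9 TPM in SAFB RIP (log2 fold change 4.92 ± 0.62 SE, limma adjusted p = 0.00928). Cdk12 rose as well, from 73.0 and 72.2 TPM in IgG RIP to 249 and 226 TPM in SAFB RIP (1.69 ± 0.10 SE, limma adjusted p = 0.00407).

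Mir7087 and its host went opposite ways. Sidt2, whose product is a lysosomal membrane protein that takes up nucleic acids, was at 233 and 199 TPM in IgG RIP and at 80.7 and 89.4 TPM in SAFB RIP (log2 fold change -1.33 ± 0.13 SE, limma adjusted p = 0.00606). Mir7087, at the acceptor end of its 1780-base intron, was listed at 0 and at 1.28 TPM in IgG RIP and stood at 15.2 and 17.6 TPM in SAFB RIP (3.52 ± 0.51 SE, limma adjusted p = 0.0117). The difference between member and host was not tested. Even in SAFB RIP the member stayed below its host per length.

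Mir6918, in an intron of the mitochondrial protein gene Nipsnap1, was listed at 0 and at 2.55 TPM in IgG RIP and at 21.3 and 26.5 TPM in SAFB RIP (log2 fold change 3.71 ± 0.69 SE, limma adjusted p = 0.0194). Mir7013, in an intron of Pi4kb, which encodes a phosphatidylinositol kinase of the Golgi, was listed at 0 and at 1.28 TPM in IgG RIP and at 17.8 and 12.1 TPM in SAFB RIP (3.38 ± 0.53 SE, limma adjusted p = 0.0137). Nipsnap1 was not called and Pi4kb was higher (0.79 ± 0.12 SE, limma adjusted p = 0.0128), though not after median centring. Mir7051, in an intron of the predicted gene Gm45233, was at 1.46 and 9.60 TPM in IgG RIP and at 46.0 and 40.2 TPM in SAFB RIP (3.11 ± 0.74 SE, limma adjusted p = 0.0343). In these 3 members every SAFB library exceeded every IgG library, as the rule that named them required.

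Of the 22 members listed at 0 in both IgG libraries, 6 had the highest mean TPM. They entered through the SAFB libraries alone, so neither a fold nor a p-value is given. Mir6417 was at 27.4 and 21.8 TPM in SAFB RIP, Mir3079 at 12.9 and 30.7 TPM and Mir6985 at 22.4 and 15.3 TPM. Mir6985 lies in a 90-base intron of Ssh3, a gene for a phosphatase that activates the actin-severing protein cofilin, and Ssh3 was not called at 115 and 103 TPM in IgG RIP and 71.2 and 94.3 TPM in SAFB RIP. Mir7663, in an intron of Tbpl1, was at 10.3 and 13.9 TPM, Mir3089 at 12.2 and 8.41 TPM and Mir7022, in an intron of Fbxo6, at 6.65 and 7.26 TPM in SAFB RIP.

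**Figure D2:**
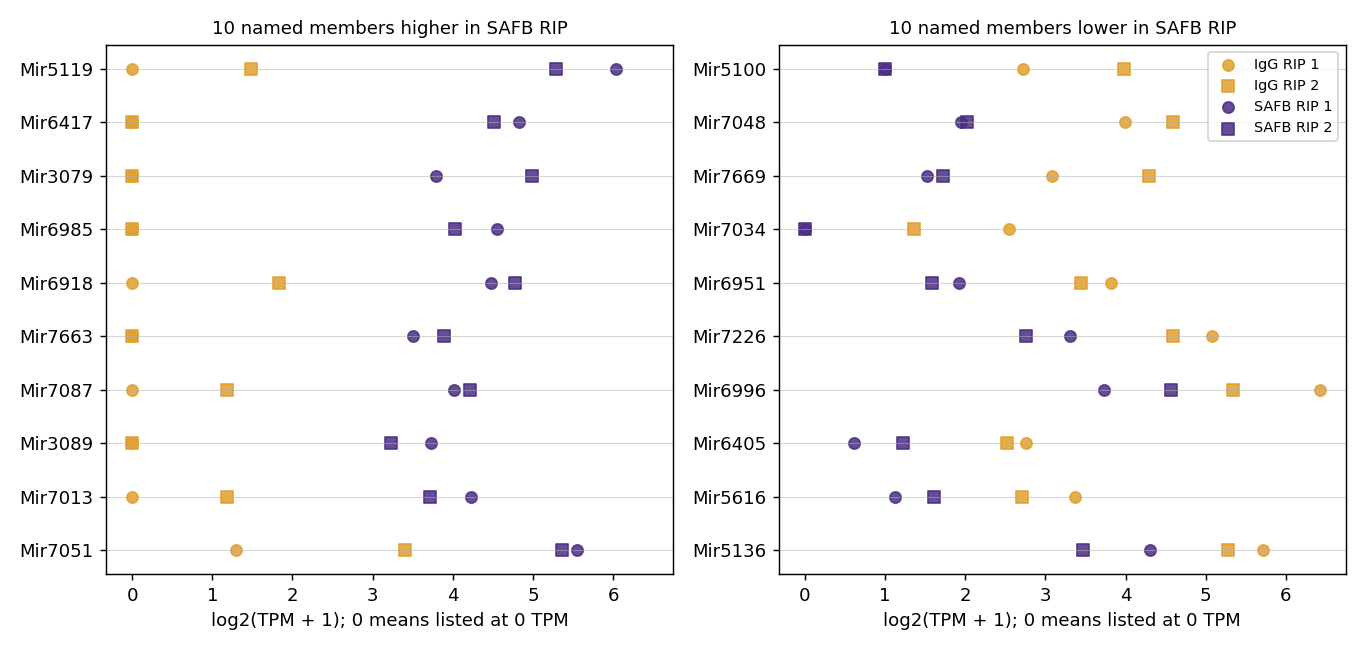
Each row is a member and each symbol 1 library (circles replicate 1, squares replicate 2; yellow IgG RIP, purple SAFB RIP), on the log2(TPM + 1) scale, for the 10 members with the largest rises (left) and falls (right) among those called. The rows were picked for groups that do not overlap, which fixes that both SAFB libraries lie to the same side of both IgG libraries. Mir6417, Mir3079, Mir6985, Mir7663 and Mir3089 sit at 0 in both IgG libraries and entered through the SAFB libraries alone. Mir7034 sits at 0 in both SAFB libraries and entered through the IgG libraries alone.

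Other members called higher that were above 0 in all 4 libraries, chosen after their values were seen, lay in hosts of several calls. Mir7090, at an acceptor end in Ctnnb1, the beta-catenin gene, was at 7.70 and 3.41 TPM in IgG RIP and at 37.4 and 32.8 TPM in SAFB RIP (log2 fold change 2.54, limma adjusted p = 0.0143), and its host was not called. Mir7021, at an acceptor end in Prdm2, was at 1.84 and 1.91 TPM in IgG RIP and at 19.6 and 14.0 TPM in SAFB RIP (2.61, limma adjusted p = 0.00976), and its host was higher. Mir1191b, in Nfic, a nuclear factor gene, was at 3.07 and 9.09 TPM in IgG RIP and at 24.0 and 35.0 TPM in SAFB RIP (2.23, limma adjusted p = 0.0341), and its host was lower. In each the SAFB libraries were clear of the IgG libraries, and the hosts were higher, lower or not called.

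The 10 largest falls comprised 5 at an acceptor end (Mir7048, Mir7034, Mir6951, Mir7226 and Mir6996), 4 in intron interiors (Mir5100, Mir7669, Mir6405 and Mir5616) and Mir5136, which had no host and lies antisense to Lbhd1. Mir5100, in an intron of Mief2, a mitochondrial fission adaptor gene, was at 5.62 and 14.7 TPM in IgG RIP and at 0.994 and 1.005 TPM in SAFB RIP (log2 fold change -2.35 ± 0.52 SE, limma adjusted p = 0.0282). Mir7048, in an intron of the death-effector-domain gene Dedd2, was at 15.0 and 23.0 TPM in IgG RIP and at 2.87 and 3.07 TPM in SAFB RIP (-2.30 ± 0.35 SE, limma adjusted p = 0.013). Neither host was called, with Mief2 at 0.04 ± 0.23 and Dedd2 at 0.41 ± 0.31 SE. The SAFB libraries nearly coincided in both members.

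Mir6996 and Mir7226 fell together with their hosts. Mir6996, at the acceptor end of a 215-base intron of Notch1, a cell-surface receptor gene for signalling between neighbouring cells, was at 84.8 and 39.5 TPM in IgG RIP and at 12.2 and 22.7 TPM in SAFB RIP (log2 fold change -1.74 ± 0.48 SE, limma adjusted p = 0.049). Notch1 was at 291 and 250 TPM in IgG RIP and at 149 and 170 TPM in SAFB RIP (-0.76 ± 0.13 SE, limma adjusted p = 0.016). Mir7226, in a 112-base intron of Ptprf, a receptor tyrosine phosphatase gene, was at 32.7 and 23.1 TPM in IgG RIP and at 8.86 and 5.78 TPM in SAFB RIP (-1.80 ± 0.34 SE, limma adjusted p = 0.0197). Ptprf fell by 0.57 ± 0.10 SE on the log2 scale (limma adjusted p = 0.0155).

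Mir6405 fell, while its host was called higher, a call lost after median centring. Mir6405 was at 5.74 and 4.76 TPM in IgG RIP and at 0.528 and 1.33 TPM in SAFB RIP (log2 fold change -1.72 ± 0.37 SE, limma adjusted p = 0.0263). Pax2, a developmental transcription factor gene, was at 94.7 and 102 TPM in IgG RIP and at 167 and 172 TPM in SAFB RIP (0.78 ± 0.10 SE, limma adjusted p = 0.00946). Mir7034, in a 91-base intron of Tmem120a, was at 4.86 and 1.57 TPM in IgG RIP and listed at 0 in both SAFB libraries; it entered through the IgG libraries alone, so no p-value is given. Mir7669, Mir6951, Mir5616 and Mir5136 fell by 2.06 ± 0.51, 1.87 ± 0.35, 1.68 ± 0.41 and 1.61 ± 0.36 SE on the log2 scale. Mir5136 was the most abundant of these, at 51.5 and 37.9 TPM in IgG RIP and 18.8 and 10.0 TPM in SAFB RIP.

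By place, the acceptor-end members had 16 called higher and 8 lower of 126, with a median log2 fold change of 0.394. Over all tested genes, 29.8% were higher and 8.30% lower, with a median of 0.457; at acceptor ends the shares were 12.7% and 6.35%. Among the 85 interior members, whose median was 0.46, 14 were higher (16.5%) and 5 lower (5.88%). Both classes held rises and falls, and their quartiles, -0.49 to 1.45 and -0.59 to 1.26, overlapped widely. Of the 7 members with both ends at splice sites 1 was called higher, and of the 16 across an exon edge, the 13 within an exon and the 3 at a donor end 0 were called by limma. At an unadjusted p under 0.05, 1 across an exon edge and 1 at a donor end were lower, and 0 within an exon differed. The classes were set after the values had been seen and were not compared by a test.

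Members without a host had 9 called higher and 1 lower of 17. All 9 entered through the SAFB libraries alone and were listed at 0 in both IgG libraries. Of the 8 others 0 were called higher by limma or had a higher value at an unadjusted p under 0.05, and their median log2 fold change was 0.08. The median of 1.41 over all 17 therefore rests on members that the filter admitted through SAFB RIP.

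**Figure D3:**
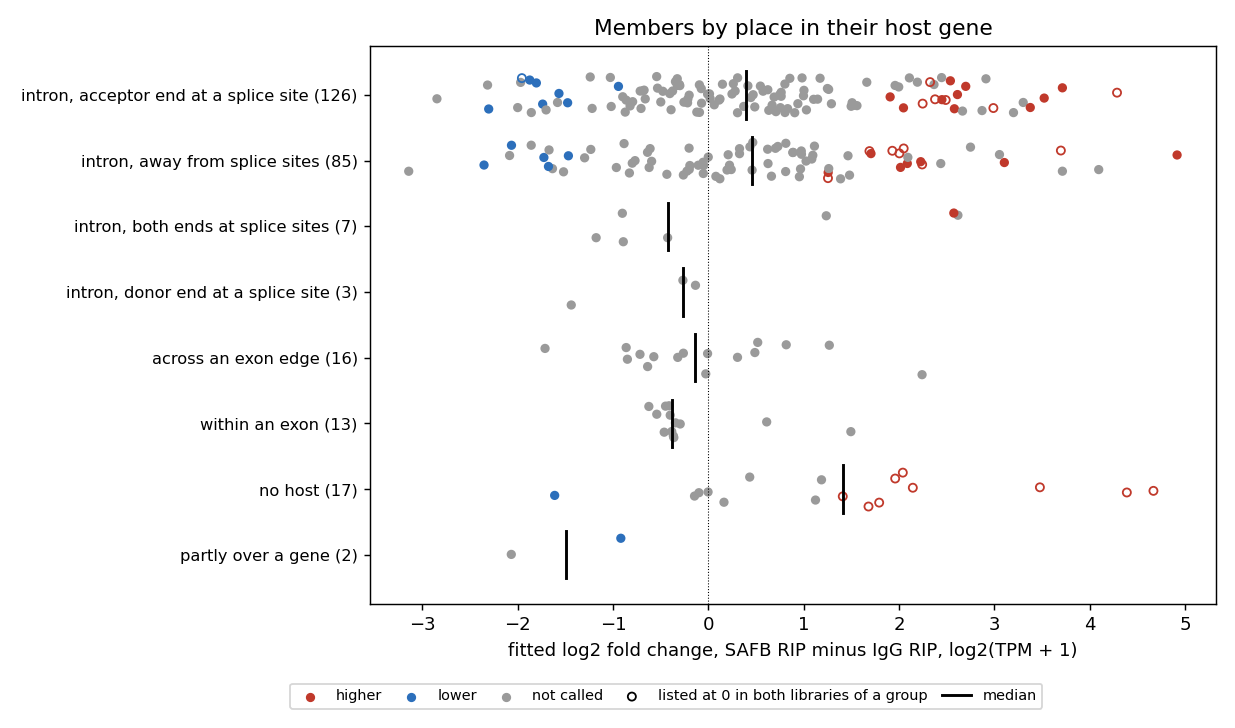
Each point is 1 member at its fitted log2 fold change, SAFB RIP minus IgG RIP on log2(TPM + 1), grouped by place in the host gene with the number of members in brackets; colours give the limma call, open circles are members listed at 0 in both libraries of a group, and black bars are medians. Called members in both directions lie at acceptor ends (16 and 8) and in intron interiors (14 and 5), and the 9 higher members without a host are all open circles.

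Most members within exons had low values. Of 13, 9 were under 2 TPM in every library: 1.26 to 1.85 TPM in IgG RIP replicate 1, 0.83 to 1.31 in IgG RIP replicate 2, 0.509 to 0.622 in SAFB RIP replicate 1 and 0.415 to 1.14 in SAFB RIP replicate 2. Their hosts ranged from 37.2 to 758 TPM on average, the highest being Scd2, a fatty acid desaturase gene. Of these hosts 3 were called higher, 1 lower and 5 neither, while of the 9 members 0 were called by limma, and 0 had an unadjusted p under 0.05. The other 4 members within exons reached 13.6 TPM or more in at least 1 library. Elsewhere 6 members were under 2 TPM in every library. The 2-TPM bound was set after seeing the values and caps the values of the 9. It does not by itself set the narrower range within a library, such as 0.509 to 0.622 TPM in SAFB RIP replicate 1. The cause of that range was not tested, and nothing is read from it about their relation to the hosts. How overlapping reads were assigned is not given in the sources used here.

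**Figure D4:**
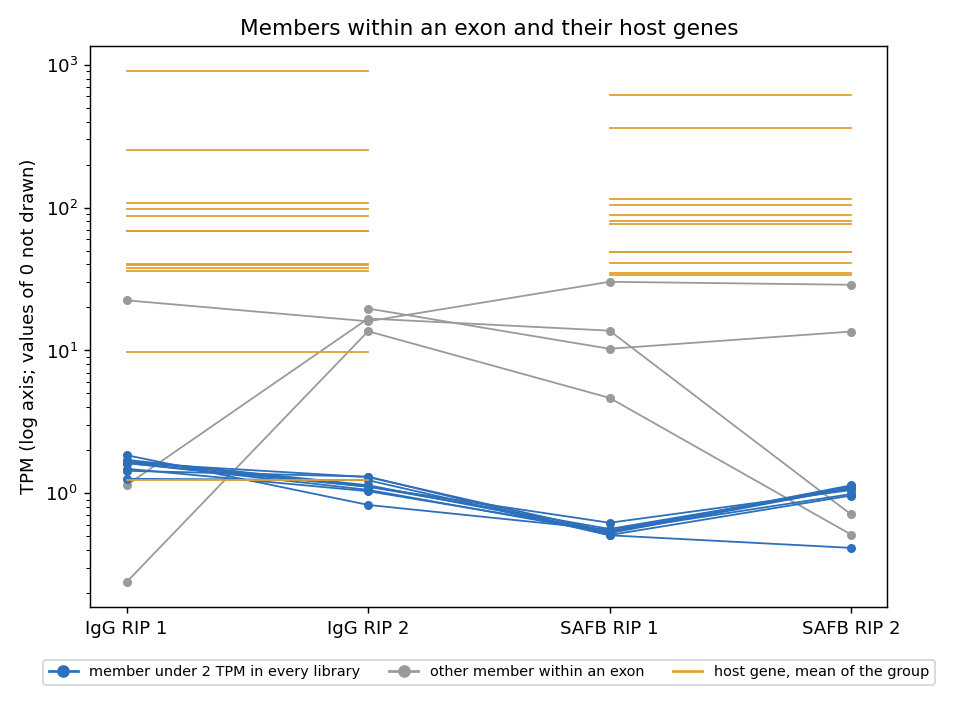
Lines with points give the TPM of the 13 members within an exon in each of the 4 libraries, on a log axis; orange bars are the group means of their host genes. The 9 blue members, picked for being under 2 TPM in every library, lie at 0.415 to 1.85 TPM, and their hosts average 37.2 to 758 TPM.

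Hosts were compared with their members over the 242 members whose host was tested (237 hosts). Of the hosts 58 were higher (24.5%, against 29.8% of all tested genes), 49 lower (20.7%, against 8.30%) and 130 not called, with a median log2 fold change of 0.034. After median centring 26 were higher and 96 lower. With 1 SAFB library left out, the only spread within a group is that of the IgG pair. Calls from such a fit therefore do not show how far these splits rest on both SAFB libraries. In mean TPM 237 of the 242 members lay below their host.

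Most called members had a host that was not called. Among 30 members called higher with a tested host, the host was higher for 6, lower for 4 and not called for 20. Among 13 called lower, it was lower for 3, higher for 1 and not called for 9. Across the 242 members the log2 fold changes of member and host had Pearson's r = 0.237 and Spearman's rho = 0.239. Member and host share their libraries, and reads of the host's pre-mRNA can fall on both, so the correlation is a description across genes.

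**Figure D5:**
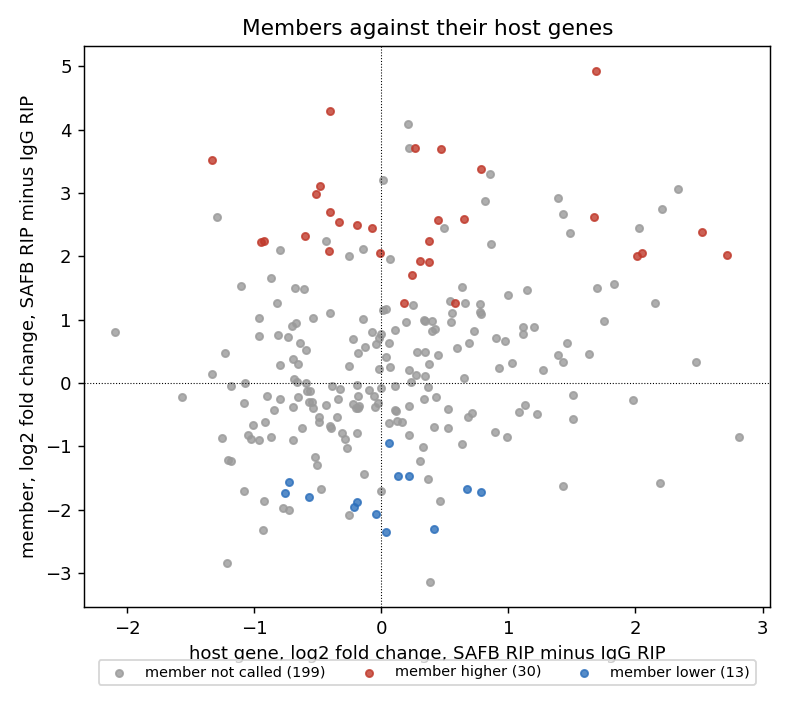
Each point is 1 of 242 members, with the host gene's log2 fold change on the x axis and the member's own on the y axis (SAFB RIP minus IgG RIP); colours give the member's limma call. Members called higher (30) and lower (13) lie on both sides of the host's zero, and the members spread further than the hosts.

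Seeds shared between members were few. Among members 20 seeds were each shared by a pair. Mir7048, printed above with the seed CUUCCAU, was lower, while Mir7077 with the same seed was listed at 0 and at 14.9 TPM in IgG RIP and at 5.20 and 11.6 TPM in SAFB RIP and was not called. Mir7034 and Mir7071 share CCGGGAG, and Mir6405 and Mir6368 share UGGGAAG; in both pairs the first was lower and the second was not called. A pair with 1 called and 1 uncalled member is not shown to differ. Of the 20 pairs 0 had both members called by limma. The strands of the first pair, both from the acceptor end of an intron, are shown again for their common seed.
miR-7048-3p: uCUUCCAUucucuuuccccag
miR-7077-3p: cCUUCCAUggcuccuggcag

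Members that lie within 10000 bases of each other formed 5 pairs, each inside 1 host gene and on 1 strand. Mir7077 and Mir7078, 6186 bases apart in Cmip, were both not called. In 3 other pairs, named after their values were seen, 1 member was higher and its neighbour was not called: Mir6902 (2.58 on the log2 scale) beside Mir6345 (0.08) in Ppp1r7, Mir6965 (2.49) beside Mir5134 (-0.03) in Ccnf, and Mir6975 (1.91) beside Mir8094 (0.31) in Ddx39b. The differences within pairs were not tested. Mir2861 and Mir3960, only 12 bases apart in an exon of Cdk9, were at -0.54 and -0.62 and not called.

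GC content overlapped between calls. The median GC content of the models was 52.4% in members called higher (41.4 to 74.5%), 55.7% in those called lower (25.3 to 61.3%) and 55.4% in the rest. Across the 269 members GC content and log2 fold change had r = -0.085 and rho = -0.128. The purine-rich strings GAAGA and GGAGG, searched on the hairpin's own strand only, stood in 4 and 6 of the 35 RefSeq hairpins of members called higher, 1 and 2 of the 13 of members called lower, and 97 and 176 of all 1005 mouse hairpins in the RefSeq tables (9.65% and 17.5%). The strings can share bases, and a match is a description only.

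Genes of the microRNA pathway were examined from a list of 30, which includes Safb, the precipitated protein's own gene, and its paralog Safb2. Leaving out these 2 genes, 26 of the list were tested, of which 11 were called higher (42.3%, against 29.8% of all tested genes) and 2 lower, with a median log2 fold change of 0.446. With them 13 of 28 were higher (46.4%), and the median was 0.553. The transcript of Safb was at 170 and 161 TPM in IgG RIP and at 988 and 880 TPM in SAFB RIP (2.49 ± 0.11 SE, limma adjusted p = 0.00373). Safb2 was at 235 and 226 TPM in IgG RIP and at 1889 and 1785 TPM in SAFB RIP (2.99 ± 0.10 SE, limma adjusted p = 0.00373). These are RNA levels in the precipitate and do not check how much protein was recovered.

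Of the Microprocessor and its helpers, Dgcr8, the RNA-binding partner of Drosha, was at 40.1 and 35.5 TPM in IgG RIP and at 73.6 and 72.0 TPM in SAFB RIP (log2 fold change 0.93 ± 0.14 SE, limma adjusted p = 0.0118). Drosha, the nuclease, was at 33.1 and 57.9 TPM in IgG RIP and at 59.4 and 60.9 TPM in SAFB RIP and was not called (0.45 ± 0.29 SE). The helicase genes Ddx5 and Ddx17 were higher, by 1.21 ± 0.12 and 0.66 ± 0.10 SE, as was Hnrnpa1, which encodes an RNA-binding protein that assists some hairpins (0.44 ± 0.10 SE). After median centring Ddx5 remained higher, while Dgcr8, Ddx17 and Hnrnpa1 (-0.02) were not called.

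Downstream, Dicer1, the gene of the cytoplasmic nuclease, was at 32.9 and 51.8 TPM in IgG RIP and at 98.0 and 97.4 TPM in SAFB RIP (log2 fold change 1.22 ± 0.24 SE, limma adjusted p = 0.0222), and was not called after median centring. Xpo5, the exportin 5 gene, and the Argonaute genes Ago1 and Ago2, named after their values were seen, were not called (-0.32 ± 0.15, -0.21 ± 0.22 and -0.41 ± 0.14 SE); after median centring Xpo5 and Ago2 were lower. Tnrc6a, whose GW182 protein links Argonaute to silencing, was at 166 and 161 TPM in IgG RIP and at 1063 and 1037 TPM in SAFB RIP (2.67 ± 0.09 SE, limma adjusted p = 0.00373). The 2 lower genes, also named after their values were seen, were Tarbp2, which encodes a Dicer partner (-0.66 ± 0.15 SE), and Khsrp, which encodes a hairpin-binding protein (-0.67 ± 0.18 SE). Leaving out Safb and Safb2, median centring left 5 of 26 higher and 6 lower, against 16.4% and 17.6% of all tested genes. Over the 28 genes, median centring left 7 higher and 6 lower. Without SAFB RIP replicate 1, and likewise without replicate 2, 3 were higher and 0 lower (1 lower in each at an unadjusted limma p under 0.05).

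The cell line's markers were read in the same libraries. Of 9 hepatocyte markers 8 reached 1 TPM in at least 2 libraries. Among them Afp did so in SAFB RIP alone, at 1.31 and 1.69 TPM, and was listed at 0 in IgG RIP. Cps1, a urea cycle enzyme gene of mature hepatocytes, was listed at 0 in IgG RIP and stayed under 1 TPM in SAFB RIP. The summed level of the hepatocyte markers was 4560 to 4880 TPM in IgG RIP and 4570 to 4620 TPM in SAFB RIP. Ttr, Krt8 and Krt18 had the highest means in it, at 1759, 1281 and 896 TPM. Alb was called higher (log2 fold change 0.43 ± 0.09 SE), while Ttr, Apoa1, Apoe, Krt8, Krt18 and Hnf4a were not called. After median centring Alb was not called, and Ttr, Apoe and Hnf4a were lower. Of 4 cholangiocyte markers 3 (Krt19, Krt7 and Sox9) were present, with sums of 910 to 1260 TPM in IgG RIP and 870 to 901 TPM in SAFB RIP, and Epcam was near 0. Krt19 and Sox9 were called lower (-0.62 ± 0.15 and -0.55 ± 0.13 SE), and Krt7 was not called. Of the fibroblast and endothelial markers 0 reached 1 TPM in 2 libraries, and of the leukocyte markers Cd68 alone did. The part of these levels in the members' values was not tested.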

How the data were processed

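Libraries of 2 IgG RIP and 2 SAFB RIP samples of AML12 cells were compared. The authors deposited 1 table of TPM values. Per the submitters' processing notes HISAT2, HTSeq, DESeq2 and StringTie were used with mm10; no source used here gives their versions or roles, the annotation or the use of strand. TPM divides by length, so values of very short models depend strongly on how reads were counted, and TPM keeps no depth.

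Entries sharing an identifier (14 of 52197) were summed, and 52042 of 52189 identifiers were found in GENCODE M21. Genes at 1 TPM or more in at least 2 libraries (16647) were fitted as log2(TPM + 1) with limma 3.58.1 in R 4.3.3 (trended variances, Benjamini-Hochberg, threshold 0.05); the scale understates changes of low genes. The fit had 2 residual and 2.5 prior degrees of freedom. A two-sided exact permutation test of 2 against 2 cannot go below 0.333 and was not used. The fit was tested on simulated data with normal noise, equal spread in both groups and no added zeros. The members' unequal spread and zeros were not simulated, so that test does not cover them. Alternatives numbered 14, 1 of them (the filter met in both groups) added after seeing the data.

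Members and lists were chosen with earlier results of these data known. Named are the 12 members highest in mean TPM, the 10 largest called rises and falls whose groups do not overlap, the 6 highest among those at 0 in a group, those at the rule's edge, seed mates and neighbours within 10000 bases, their hosts, and 6 pathway genes with Drosha, Dgcr8 and Dicer1. Place classes, the 2-base tolerance, the 2-TPM and entry splits, recurring values and sequence strings were chosen after seeing the data.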

Additional observations from a re-analysis of the deposited data

How the results depend on the processing

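All values are limma counts of calls as higher and lower in SAFB RIP, where 40 and 15 members were called in the report. Members called higher numbered 25 of 173 under a filter of 5 TPM, 21 with quantile normalization, 23 with small gene models alone and 18 of 236 with the filter met in both groups. Members called lower numbered 8 without a filter, 31 with median centring, 46 with quantile normalization, 27 with the replicate block and 1 with small models alone. No share over all genes is given for the 5 TPM filter, no filter, the block or the filter met in both groups. The member counts of those settings are therefore not set against all genes. Leaving out 1 library gave 22 to 111 members higher and 0 to 63 lower, with the low ends without either SAFB library. Their median log2 fold change, 0.307, was 0.734 with a pseudocount of 0.1, -0.15 with median centring, -0.40 with quantile normalization, 1.06 with small models alone and -0.02 to 0.57 with 1 library left out.

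Over all genes, 4964 higher and 1382 lower became 2736 and 2935 with median centring, 2758 and 2986 with quantile normalization, 142 and 4 of 1046 with small models alone, and 767 to 7627 and 7 to 2566 with 1 library left out. Pathway genes became 7 and 6 with median centring; 1 was lower with a pseudocount of 0.1 and without a filter, 5 with quantile normalization and 0 without a variance trend, and leaving out 1 library gave 3 to 16 higher and 0 to 4 lower. Host genes became 26 and 96 with median centring, 87 were lower with quantile normalization and 28 without a variance trend, and leaving out 1 library gave 1 to 79 higher and 0 to 71 lower. Pathway and host genes are not in the fit of small models. Fewer genes tested account for part of these changes by construction. With 1 library left out, the only spread within a group is that of the other group's pair, so counts of calls from those fits are not comparable with the rest. Otherwise the cause was not tested.

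Of the named members, 7 that were not called in the report changed direction under some alternative. Mir7052 was at -0.35 with median centring and -0.19 with quantile normalization, and Mir7071 at -0.013 and -0.29. With 1 library left out, Mir7071 ranged from -0.76 to 1.66, Mir6972 from -0.61 to 0.42, Mir6374 from -0.89 to 0.023, Mir1231 from -1.93 to 0.52, Mir7077 from -0.85 to 3.14 and Mir6368 from -0.17 to 2.12. Mir6972 was at 0.19 with small models alone. Replicate numbers were not shown to pair the libraries (correlation of deviations -0.025), so the block is given here only. Depth is unknown, and the members' spread between IgG libraries limits what 2 against 2 can show.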
